A study of Mus musculus with 40 samples.

Results

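The transcripts described here encode heat shock chaperones: Hspa1a, Hspa1b, Hsph1, Dnajb1, Dnaja1, Hspa8, Hsp90aa1, Hspb1, Hspa5 and Hspa4l. They were chosen by gene name, with earlier results of these data known, as were the other gene lists. Every probe whose gene name in the scanner files equals a member was taken. Of the 10 genes, 9 had such a probe, with 13 probes in all among 55589 on the array, and Hspa1b had none. All 13 probes were well above background and none was saturated on any of the 40 arrays.

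Total RNA from the cortex of the cerebrum and from the cerebellum was hybridised to 1-colour Agilent arrays, 4 mice to a group and 10 groups in all. Either region was taken from young wild-type animals (2 months, normal diet) and from 4 kinds of aged animals (29 months), which were wild type with the normal diet, wild type with a diet deficient in α-tocopherol, Ttpa-/- with that deficient diet, and Ttpa-/- with a supplemented diet. The normal diet held 36 mg and the supplemented diet 600 mg of α-tocopherol per kg. The product of Ttpa carries α-tocopherol, a form of vitamin E, out of the liver, and the study used its loss together with the deficient diet as a model of chronic oxidative stress. The knockout is not restricted to a tissue, and no Ttpa-/- mice on the normal diet and no young Ttpa-/- mice were among the groups. The labels do not tie the cortex and the cerebellum of one animal together.

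Several facts of the whole series touch these values. In wild-type cerebellum the brighter Ttpa probe was well above background on all 4 arrays of each group, against 0 or 1 of 4 arrays in the Ttpa-/- groups, while in the cortex it was above background on at most 1 of 4 arrays of any group, so that the cortex does not check the genotype. The cortical neuron marker Emx1 was not above background in the cerebellum, and the granule cell markers Gabra6 and Cbln3 were not above background in the cortex. The arrays came on 5 slides with 2 groups on each. Aging in the cortex, the deficient diet in wild-type cerebellum, the diet of Ttpa-/- cerebellum, and the supplemented Ttpa-/- against the deficient wild-type cortex were compared within a slide. In every other comparison slide and condition cannot be told apart. In bulk tissue, fewer cells of a type and less RNA per cell cannot be told apart either.

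Chaperones bind unfolded proteins and hold, refold or release them. The Hsp70 proteins do so in cycles of ATP hydrolysis that J domain proteins start and that Hsp110 proteins, which exchange the nucleotide, end. In the cytosol the genes are switched on by heat shock factor 1 when unfolded protein builds up, whereas the Hsp70 of the endoplasmic reticulum, encoded by Hspa5, answers to the unfolded protein response. Neurons hold the constitutive Hspa8 and Hsp90 at high levels, and Hspb1 is a small heat shock protein that holds unfolded proteins without using ATP.

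Probe sequences are shown for the members whose reading turns on where the probe lies. The Hspa1a probe at chr17:35107117-35107176 (mm9, minus strand) also lists the Hspa1b transcript in its annotation. It therefore reads both inducible Hsp70 genes together, and its values are called Hspa1a below only because the array does. Hsph1 had a pair of probes, of which the dimmer lies at chr5:150420110-150420169 (minus strand), and Hspa8 had 3, of which the middle one is placed within chr9:40612755-40613050 and the one nearest the 5′ end lies at chr9:40611142-40611201 (both plus strand).
Hspa1a: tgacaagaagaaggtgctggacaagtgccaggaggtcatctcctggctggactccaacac
Hsph1, dimmer probe: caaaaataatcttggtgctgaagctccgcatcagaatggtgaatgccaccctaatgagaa
Hspa8, middle probe: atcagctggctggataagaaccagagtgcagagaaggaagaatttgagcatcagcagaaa
Hspa8, probe nearest the 5′ end: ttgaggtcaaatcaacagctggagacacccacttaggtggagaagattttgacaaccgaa

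Promoters are shown for the members that were called with the diet in the Ttpa-/- cerebellum, and for Hsph1, which had the same direction there. RefSeq windows of GRCm38.p6 were at hand for 8 of the 10 genes, all but Hspa8 and Hsp90aa1, and the 250 bases before the start were searched for GAANNTTC and TTCNNGAA, the inverted repeats that make up heat shock elements, and for the endoplasmic reticulum stress element, CCAAT and CCACG set 9 bases apart. Each letter string was searched on both strands, and the motifs can overlap. GAANNTTC was found in 6.69% and TTCNNGAA in 7.16% of all 32817 promoters, 12.8% held at least one of them, and the stress element stood in 0.113%. A heat shock 8-mer was present before at least 1 start of 5 of these 8 members, which were Hspa1a, Hspa1b, Hsph1, Dnaja1 and Hspb1. The stress element was present before Hspa5. These counts are by gene, and some members had several windows, 12 in all, whereas the shares of all promoters are by window. In the sequences, given 5′ to 3′ in the direction of the gene, capitals mark these motifs, and for Hsph1 the window of 1 of its 2 starts is shown.
Hspa1a, chr17:34972157-34972406, minus strand: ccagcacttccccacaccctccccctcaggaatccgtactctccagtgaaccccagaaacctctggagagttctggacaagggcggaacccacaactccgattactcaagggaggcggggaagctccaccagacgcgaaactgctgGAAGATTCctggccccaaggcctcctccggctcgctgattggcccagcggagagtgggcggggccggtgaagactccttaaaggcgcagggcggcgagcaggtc
Hsph1, chr5:149636337-149636586, minus strand: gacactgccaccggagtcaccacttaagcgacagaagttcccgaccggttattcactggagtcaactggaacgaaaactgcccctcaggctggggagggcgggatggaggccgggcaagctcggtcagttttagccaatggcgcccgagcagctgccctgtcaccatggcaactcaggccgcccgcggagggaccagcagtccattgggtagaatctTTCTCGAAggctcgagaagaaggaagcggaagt
Hspb1, chr5:135887669-135887918, plus strand: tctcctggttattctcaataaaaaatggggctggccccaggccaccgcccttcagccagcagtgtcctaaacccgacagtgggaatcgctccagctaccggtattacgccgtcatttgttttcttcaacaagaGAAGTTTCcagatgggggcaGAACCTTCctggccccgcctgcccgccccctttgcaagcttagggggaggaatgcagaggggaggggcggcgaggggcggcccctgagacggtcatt
Hspa5, chr2:34771840-34772089, plus strand: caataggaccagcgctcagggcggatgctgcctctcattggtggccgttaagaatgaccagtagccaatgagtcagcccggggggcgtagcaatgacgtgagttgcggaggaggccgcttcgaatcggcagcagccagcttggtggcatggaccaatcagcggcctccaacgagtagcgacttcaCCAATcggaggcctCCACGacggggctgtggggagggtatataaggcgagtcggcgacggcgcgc
The Hspa1a 8-mer starts 104 bases before the gene, those of Hspb1 start 117 and 97 bases before it, and the Hspa5 element starts 65 bases before it. The Hspa1b window was the same as that of Hspa1a at 247 of 250 bases.

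Levels are log2 signals relative to the 75th percentile of each array, and a change is a difference of group means on that scale. A chaperone was called when its adjusted p in the limma fit over all 40 arrays was under 0.05 and its change was over 1.5-fold. Shares of all probes called are at both thresholds throughout, and no share at an adjusted p alone was counted. The brightest probe stood for a gene, and levels of different genes were not set against each other, because probes differ in brightness. The plot of single arrays gives all values.

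**Figure D1:**
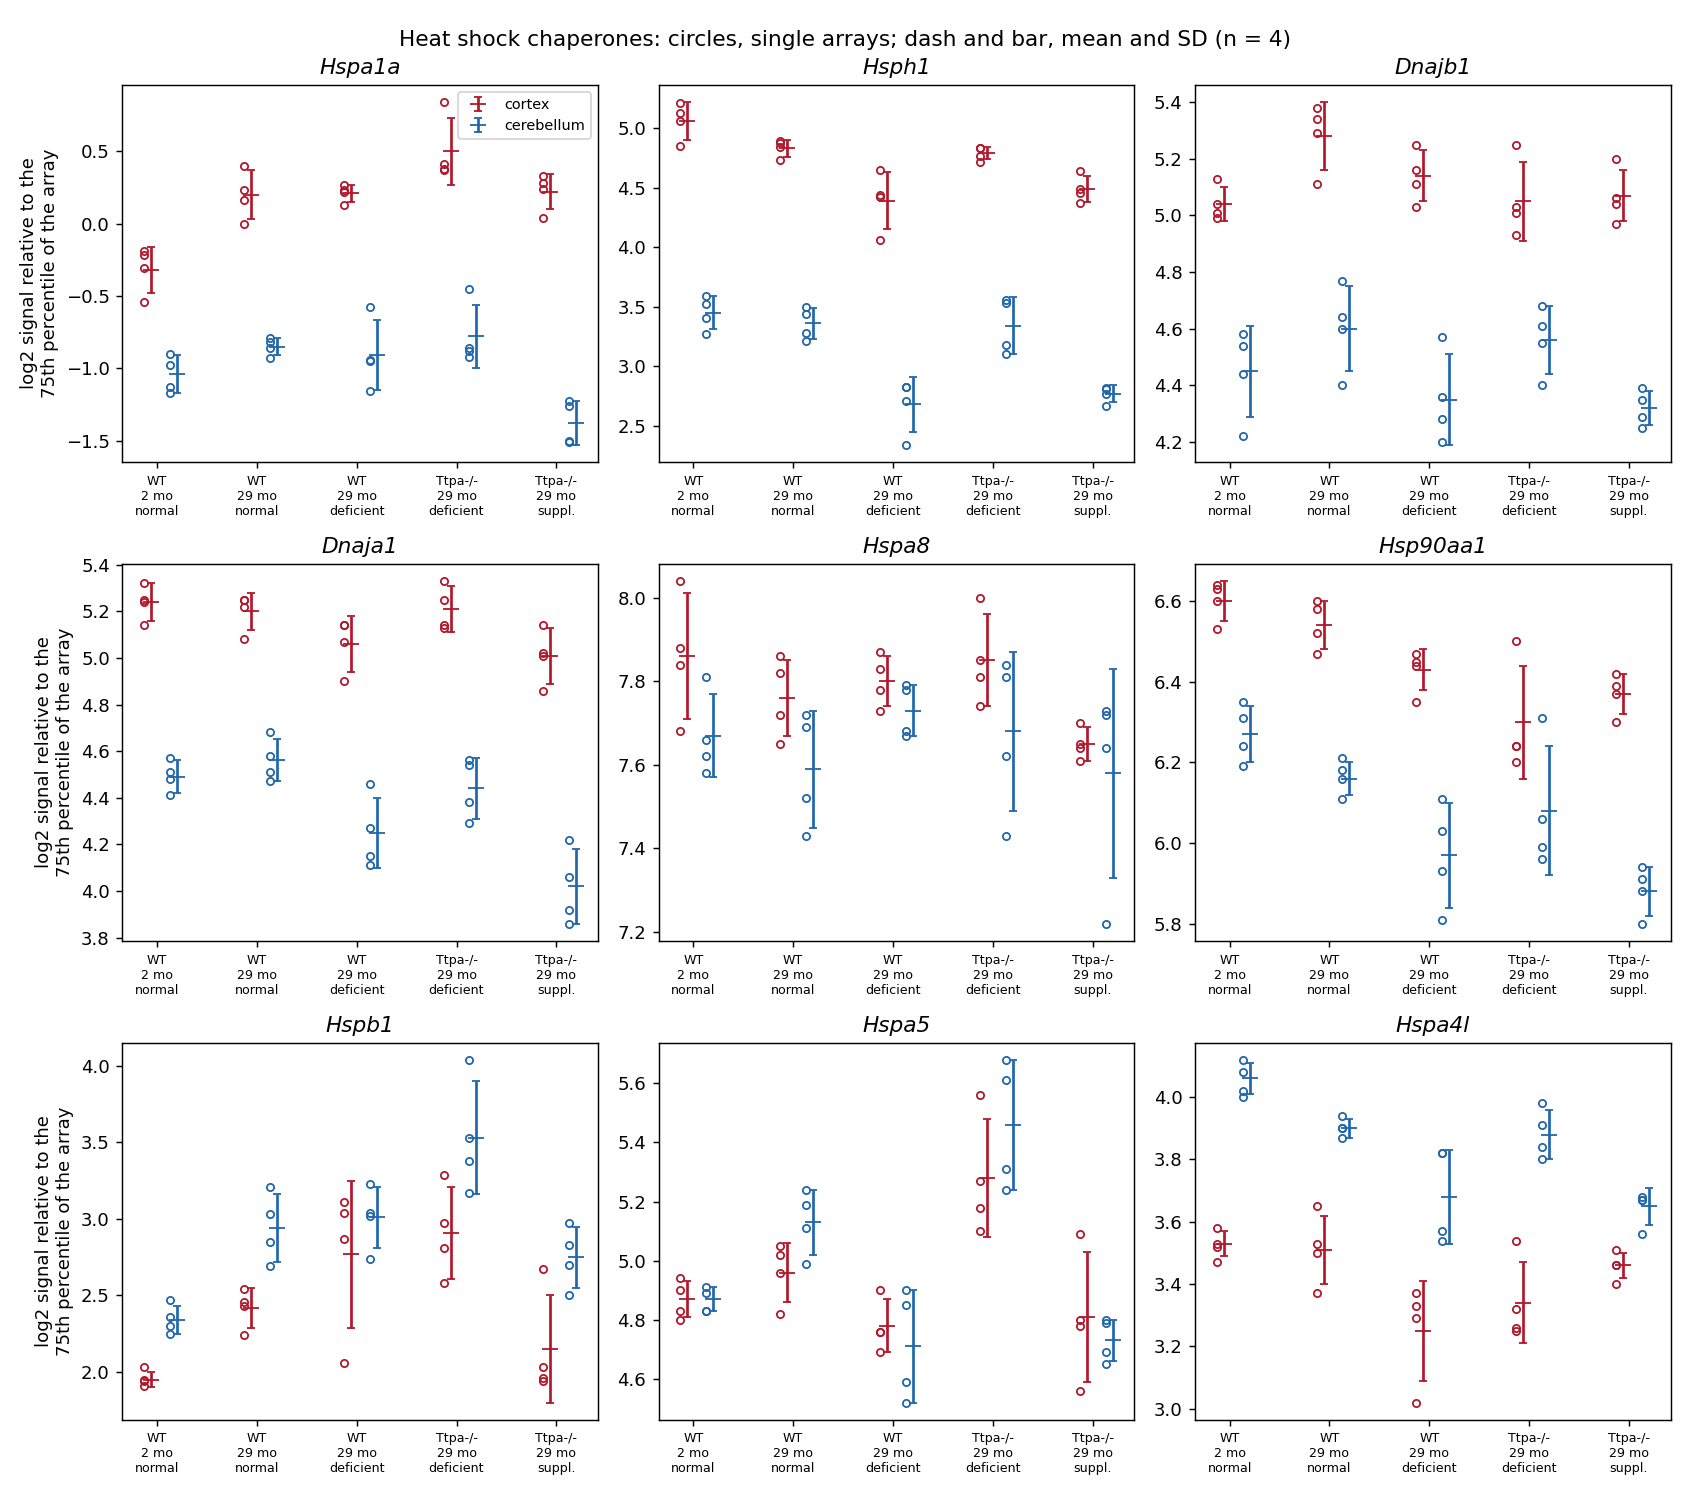
Log2 signal relative to the 75th percentile of the array (y axis) for the 9 chaperones in the 5 groups (x axis) of cortex (red) and cerebellum (blue). Circles are single arrays, dashes and bars are the mean and SD of 4 arrays. Hsph1 lies higher in cortex than in cerebellum in all groups, and in the cerebellum it is lower in the deficient wild-type and the supplemented Ttpa-/- groups than in the other 3.

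Among the comparisons within a region, the most chaperones were called for the diet of the Ttpa-/- cerebellum. There, 3 of 9 were higher on the deficient than on the supplemented diet, where 0.343% of all probes tested were called in either direction, and the median change of the 9 was 0.43 against -0.008 over all probes. All 9 changes were above 0, 5 of them with an adjusted p under 0.05, and they ran from 0.1 for Hspa8 to 0.78 for Hspb1. The share of all probes at an adjusted p alone was not counted. The count was 0 after median scaling, in a limma fit of those 8 arrays by themselves and with the plain t-test of the study's methods after Benjamini-Hochberg adjustment, and ran from 1 to 4 when single arrays were omitted. It was 1 without the deficient replicate 1 or without the supplemented replicate 3. In the cortex the same comparison called 1 of 9, Hspb1, against 3.31% of probes, with a median change of 0.2. Between Ttpa-/- and wild-type mice that both ate the deficient diet, 2 of 9 were higher in the Ttpa-/- cerebellum, Hsph1 and Hspa5, against 4.94% of probes. None was called in the cortex in that comparison, where 3.07% of probes were called, and Hspa5 and Hsph1 had an adjusted p under 0.05 below the fold threshold.

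In wild-type mice, the deficient diet against the normal one called 1 of 9 chaperones in the cerebellum, Hsph1, which was lower, against 1.28% of probes, and 0 of 9 in the cortex against 0.223% of probes. Supplemented Ttpa-/- cerebellum also had 1 of 9 lower than aged wild-type cerebellum on the normal diet, again Hsph1, against 4.91% of probes at both thresholds. All 9 changes there were below 0, with a median of -0.28 against -0.014 over all probes. An adjusted p under 0.05 was reached by 7 of 9, for which no share of all probes was counted. None was called between the same groups of the cortex, where 0.092% of probes were called, or between the supplemented Ttpa-/- and the deficient wild-type cortex, where 0.0316% were. These comparisons share groups, so that a low group enters more than 1 of them.

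For aging and oxidative stress, the comparisons for which the study was made, 0 or 1 of 9 chaperones were called. With 9 genes, such counts cannot be told from the shares of all probes. With age, 0 of 9 were called in the cortex, where 2.09% of probes were, and 1 of 9 in the cerebellum, Hspb1, against 5.03% of probes. The deficient Ttpa-/- mice differed from aged wild-type mice with the normal diet, the contrast taken for oxidative stress, in 0 of 9 chaperones in the cortex against 4.75% of probes and in 0 of 9 in the cerebellum against 4.46%. At an adjusted p under 0.05 without the fold threshold, 2 of 9 passed in each region, with no share of all probes counted at that threshold. No chaperone differed between regions in its change with age, for which 1.46% of probes were called, or with oxidative stress, for which 3.38% were, and none reached an adjusted p under 0.05 in either test of that difference.

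**Figure D2:**
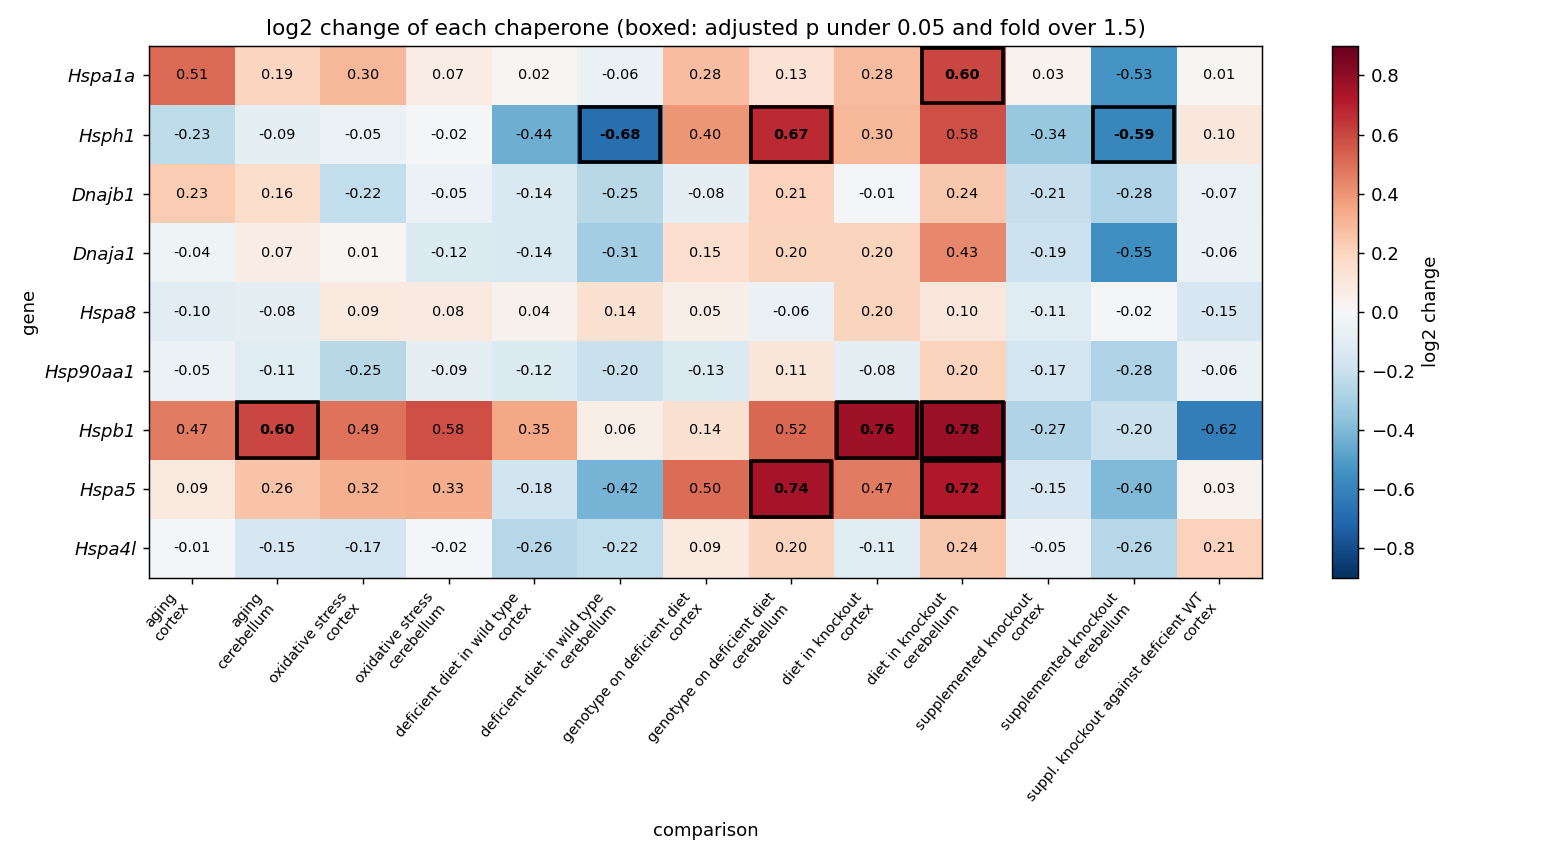
Log2 change of each of the 9 chaperones (rows) in 13 comparisons within a region (columns), with red for higher and blue for lower in the group named first. Boxes mark an adjusted p under 0.05 with a change over 1.5-fold, and the column of the diet in the Ttpa-/- cerebellum is positive throughout, from 0.10 to 0.78.

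Hsph1, the Hsp110 protein that frees Hsp70 from ADP, differed between diets in either genotype, with different diets compared in each. In the cerebellum its level was 3.27, 3.41, 3.59 and 3.52 in the young and 3.44, 3.28, 3.5 and 3.21 in the aged wild-type mice with the normal diet. It was 2.34, 2.71, 2.83 and 2.83 in the deficient wild-type mice, a group that did not overlap with either. In the Ttpa-/- mice it was 3.53, 3.1, 3.18 and 3.56 on the deficient diet. On the supplemented diet it was 2.82, 2.77, 2.67 and 2.81, lower and again without overlap. Thus the deficient wild-type and the supplemented Ttpa-/- arrays were the low ones. The deficient diet was set against the normal one in wild-type mice and against the supplemented one in Ttpa-/- mice. The same pair of diets was not compared in both genotypes, and whether the effect of diet differed between them was not tested. The deficient diet changed it in wild-type mice by -0.68 ± 0.12 (SE), with a 95% interval from -0.92 to -0.45 and an adjusted p of 0.00438 in limma. The Ttpa-/- mice exceeded the wild-type mice on the deficient diet by 0.67 ± 0.12 (adjusted p = 0.000276 in limma), and the supplemented Ttpa-/- mice differed from the aged wild-type mice with the normal diet by -0.59 ± 0.12 (adjusted p = 0.000969 in limma). Between the diets of the Ttpa-/- mice the change was 0.58 ± 0.12 (adjusted p = 0.00917 in limma), or 1.49-fold, below the fold threshold.

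Each of the 3 Hsph1 calls was lost when certain single arrays were left out. Without the deficient wild-type cerebellum replicate 1, its lowest array, the diet change in wild-type mice was -0.57 and the change between genotypes 0.55, with adjusted p of 0.041 and 0.00293, both below the fold threshold. The change between supplemented Ttpa-/- and aged wild-type cerebellum ranged from -0.64 to -0.55 when each array was left out, and was under the fold threshold without the aged wild-type replicate 1 or 3 or without the supplemented Ttpa-/- replicate 3. The change between the Ttpa-/- diets was over it, from 0.59 to 0.66, without the deficient replicate 2 or 3 or the supplemented replicate 1 or 4. When limma was fitted to the 8 arrays of a comparison by themselves, the wild-type diet change had an adjusted p of 0.14 and the genotype change one of 0.0868. The call between supplemented Ttpa-/- and aged wild-type cerebellum was kept there. Beside these Hsph1 changes, the oligodendrocyte marker Mag was lower on the deficient diet in wild-type cerebellum (-0.82 ± 0.22), the only one of 6 such markers called, with a list median of -0.5. The Purkinje cell marker Car8 was lower in the Ttpa-/- cerebellum of either diet (-2.27 ± 0.48 between genotypes on the deficient diet and -2.89 ± 0.48 for supplemented against aged wild-type mice), and was the only one of 5 Purkinje markers called, with list medians of 0.1 and 0.08. Car8 was lower in the cortex too, by changes of -2.28 and -3.38 in the same comparisons. The microglial P2ry12 (0.6 ± 0.17) and the granule cell marker Fat2 (0.61 ± 0.16) were higher between genotypes in the cerebellum, each as 1 of 6 markers of its list called, with list medians of 0 and 0.13. Their part in the chaperone values was not tested. The dimmer Hsph1 probe shown above gave changes of -0.7 for the wild-type diet, -0.78 for supplemented Ttpa-/- and 0.57 for the Ttpa-/- diets. For the genotypes on the deficient diet it gave 0.49 (adjusted p = 0.0133 in limma), below the fold threshold.

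In the cortex the differences of Hsph1 between diets and genotypes had the same signs. Its level was 5.13, 5.21, 5.06 and 4.85 in young and 4.88, 4.84, 4.89 and 4.73 in aged wild-type mice, and 4.06, 4.44, 4.42 and 4.65 in deficient wild-type mice. The Ttpa-/- arrays read 4.83, 4.72, 4.77 and 4.83 on the deficient and 4.49, 4.46, 4.37 and 4.64 on the supplemented diet. Neither pair of diets overlapped. The wild-type diet change was -0.44 ± 0.12 (adjusted p = 0.0712), the genotype change 0.4 ± 0.12 (adjusted p = 0.0226) and the Ttpa-/- diet change 0.3 ± 0.12 (adjusted p = 0.0818, all in limma). With the dimmer probe the genotype change was 0.5 in the cortex, against 0.49 in the cerebellum. Whether these changes differed between the regions was not tested. Each of these cortical comparisons crossed slides. The deficient wild-type and the supplemented Ttpa-/- cortex, the low groups, shared a slide that held no other group. In the cortex this pattern therefore cannot be told apart from a difference between slides.

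Hspa5, the Hsp70 of the endoplasmic reticulum, had its highest group mean in the deficient Ttpa-/- mice in both regions. In the cerebellum these 4 arrays read 5.68, 5.24, 5.31 and 5.61, whereas the supplemented Ttpa-/- arrays read 4.8, 4.79, 4.65 and 4.69 and the deficient wild-type arrays 4.52, 4.59, 4.85 and 4.9. No array of the first group overlapped with the other 2 groups. The aged wild-type arrays with the normal diet lay between, at 5.24, 4.99, 5.11 and 5.19, of which the highest met the lowest deficient Ttpa-/- array, and the young ones read 4.89, 4.83, 4.91 and 4.83. The change was 0.72 ± 0.11 between the Ttpa-/- diets (interval 0.51 to 0.94, adjusted p = 0.00022) and 0.74 ± 0.11 between the genotypes on the deficient diet (interval 0.53 to 0.96, adjusted p = 1.94e-05, both in limma). Leaving out each array in turn kept both calls, with changes from 0.65 to 0.8 and from 0.67 to 0.82. For the Ttpa-/- diets, the adjusted p was 0.358 in a limma fit of those 8 arrays by themselves and 0.0598 after median scaling. With the methods' t-test after Benjamini-Hochberg adjustment it was 0.249 for the Ttpa-/- diets and 0.0688 for the genotypes, so that both calls were lost.

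Set beside the aged wild-type mice with the normal diet, Hspa5 differed less. The deficient Ttpa-/- mice exceeded them by 0.33 ± 0.11 in the cerebellum and 0.32 ± 0.11 in the cortex (adjusted p = 0.0376 and 0.0358 in limma), below the fold threshold. The deficient wild-type cerebellum was lower by a change of -0.42 ± 0.11 (adjusted p = 0.0241 in limma), and the supplemented Ttpa-/- cerebellum by one of -0.4 ± 0.11 (adjusted p = 0.0118 in limma), also below it. Cortical arrays read 5.27, 5.1, 5.18 and 5.56 in the deficient Ttpa-/- group, 5.09, 4.78, 4.56 and 4.8 in the supplemented Ttpa-/- group and 4.76, 4.76, 4.9 and 4.69 in the deficient wild-type group. The first group lay above both others, by 0.47 ± 0.11 and 0.5 ± 0.11 (adjusted p = 0.00408 and 0.00306 in limma), neither over the fold threshold. Both of these cortical comparisons crossed slides, so that slide and condition cannot be told apart in them. The difference between regions in the change with oxidative stress was -0.01 (interval -0.32 to 0.29, adjusted p = 0.974 in limma).

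Of 22 other chaperones and unfolded protein response genes of the endoplasmic reticulum, 3 rose and 0 fell between the Ttpa-/- diets in the cerebellum, where 0.343% of all probes were called, with a median change of 0.42. They were Sdf2l1 (0.99 ± 0.15), which assists Hspa5, the secreted protein Manf (0.79 ± 0.13) and the transcription factor Xbp1 (0.6 ± 0.09). In the cortex 4 rose and 0 fell, against 3.31% of probes, with a median of 0.1, and these were Sdf2l1 (0.7 ± 0.15), the Hsp110-like Hyou1 (0.67 ± 0.15), the disulfide isomerase Pdia4 (0.67 ± 0.12) and the calcium-binding chaperone Calr (0.6 ± 0.11). Between the genotypes on the deficient diet, 3 rose in the cerebellum, against 4.94% of probes, with a median of 0.32, Sdf2l1 (1.06 ± 0.15), Pdia6 (0.71 ± 0.11) and Manf (0.65 ± 0.13). In that comparison Pdia4 (0.84 ± 0.12), Hyou1 (0.8 ± 0.15), Sdf2l1 (0.75 ± 0.15) and Calr (0.65 ± 0.11) rose in the cortex, against 3.07% of probes, with a median of 0.09. Hspa5 itself was called in neither of these cortical comparisons, being below the fold threshold. Both cortical comparisons, and that of the genotypes in the cerebellum, crossed slides. Single genes of the list were also called in other comparisons within a region where Hspa5 was not. They were Hyou1 (0.82 ± 0.15) in deficient Ttpa-/- against aged wild-type cortex, Sdf2l1 (-0.62 ± 0.15) for the wild-type diet in the cerebellum and Manf (-0.63 ± 0.13) in supplemented Ttpa-/- against aged wild-type cerebellum. With age 0 of the 22 were called in either region by limma, where 2.09% of probes were called in the cortex and 5.03% in the cerebellum. Calr was named after its values were seen, since 4 genes were called and 3 named by the rule.

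The genes whose levels followed Hspa5 most closely over the 40 arrays, after each region's mean was subtracted, were Manf, Pdia6 and Sdf2l1 (Pearson r = 0.89 each), Creld2 (0.87) and Atxn7l1 (0.85), out of 13851 genes above background on all arrays. Manf, Pdia6, Sdf2l1 and Creld2 are on the list of the endoplasmic reticulum. The 40 arrays share groups and slides, and r is given as a description. Within the cerebellum r was 0.87 for Manf, 0.95 for Pdia6, 0.92 for Sdf2l1 and 0.88 for Creld2, and within the cortex it was 0.94, 0.77, 0.83 and 0.87.

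**Figure D3:**
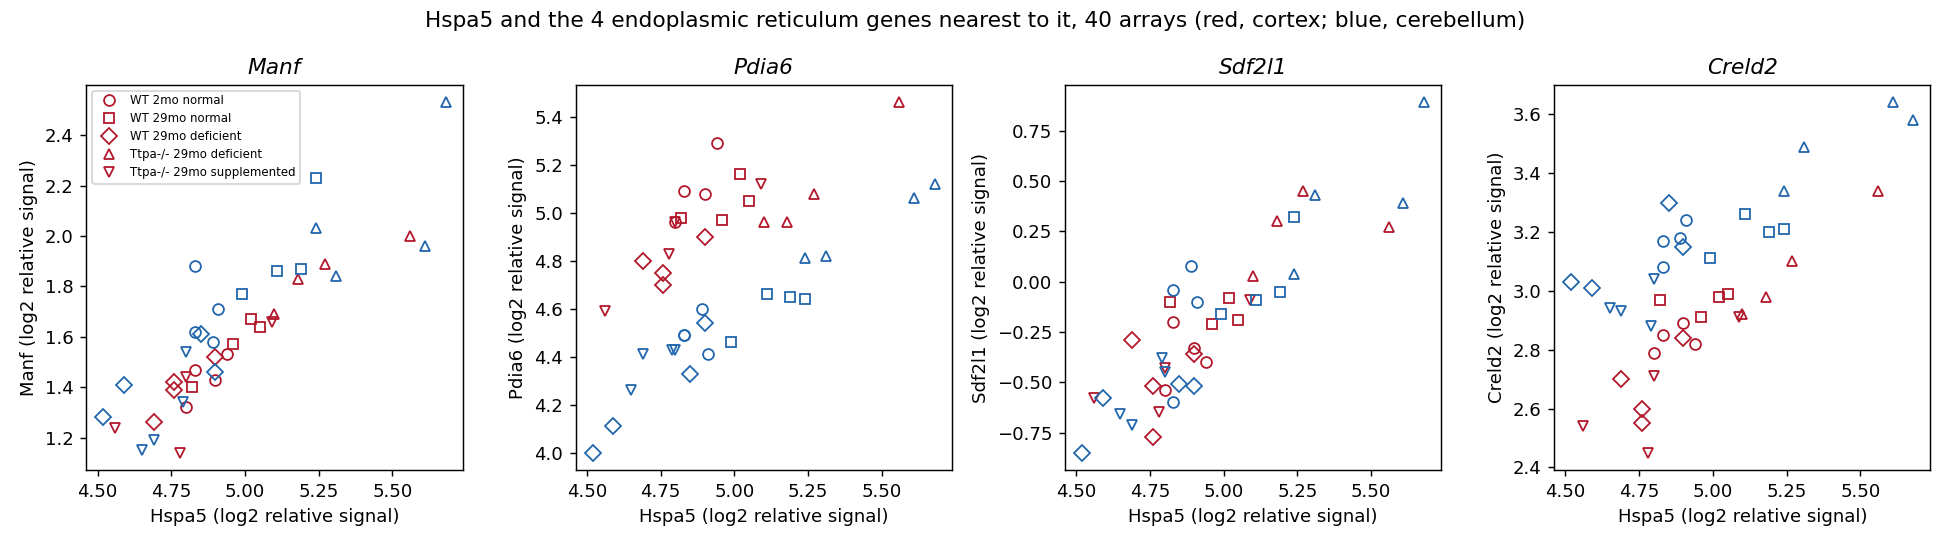
Log2 relative signal of Manf, Pdia6, Sdf2l1 and Creld2 (y axes) against Hspa5 (x axes) on 40 arrays, cortex in red and cerebellum in blue, with a symbol for each group. The deficient Ttpa-/- arrays lie from 5.1 to 5.56 in Hspa5 in the cortex, above all other cortical arrays, and from 5.24 to 5.68 in the cerebellum, where the highest aged wild-type array is also at 5.24.

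Hspa1a, read together with Hspa1b, is the stress-inducible Hsp70 of the cytosol. In the cerebellum the supplemented Ttpa-/- arrays were the lowest of all, at -1.23, -1.26, -1.5 and -1.51, and the deficient Ttpa-/- arrays read -0.45, -0.92, -0.86 and -0.88. The groups did not overlap, and the change between the diets was 0.6 ± 0.12 (interval 0.36 to 0.84, adjusted p = 0.00864 in limma), or 1.51-fold. Aged wild-type arrays with the normal diet, at -0.79, -0.86, -0.93 and -0.82, also lay above the supplemented group, whose change against them was -0.53 ± 0.12 (adjusted p = 0.00319 in limma, 1.44-fold). The call between the diets was lost without the deficient replicate 1, the highest array (0.49, adjusted p = 0.0691), and without the supplemented replicate 3 or 4 (0.56 and 0.55). It was also lost with normexp background correction (0.49, adjusted p = 0.0104), in a limma fit of those 8 arrays by themselves (adjusted p = 0.522) and after median scaling (adjusted p = 0.154).

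With age Hspa1a moved in the cortex, below the fold threshold. The young arrays read -0.22, -0.19, -0.31 and -0.54 and the aged ones 0.23, 0.16, 0 and 0.4. No young array reached an aged one, and the change was 0.51 ± 0.12 (adjusted p = 0.00863 in limma), or 1.43-fold, and 0.44 to 0.58 with an array left out, on a slide that both groups shared. In the cerebellum the change with age was 0.19 ± 0.12 (adjusted p = 0.359 in limma), and the difference between regions was 0.32 (interval -0.03 to 0.66, adjusted p = 0.484 in limma).

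Hspb1 had the widest spread between arrays of a group, with an SD up to 0.48 in the deficient wild-type cortex. Young cerebellum read 2.47, 2.36, 2.25 and 2.3 and aged wild-type cerebellum 3.03, 2.85, 2.69 and 3.21, without overlap. The change with age was 0.6 ± 0.19 (interval 0.21 to 0.99, adjusted p = 0.0373 in limma), or 1.52-fold. That call was lost without any 1 of the 4 young arrays and without the aged replicate 1 or 4, with adjusted p from 0.0541 to 0.134, and after median scaling, with array weights or with no filter on dim probes. In the cortex the change was 0.47 ± 0.19 (adjusted p = 0.205 in limma). Beside the cerebellar change, 4 of 6 microglial markers rose (Aif1, 1.79 ± 0.17, and Tmem119, Cx3cr1 and Csf1r by less) and the astrocyte marker Gfap rose by 1.87 ± 0.18. Gfap was 1 of 6 astrocyte markers to be called. Choroid plexus markers fell in 2 of 7 tested, and red blood cell markers rose in 2 of 3. Of 4 striatal markers tested, 2 rose, Drd2 and Rgs9. In this comparison 5.03% of all probes were called. As summed relative signal, the microglial list was 82.1 to 88.2 in the young and 87.3 to 102 in the aged group, and the astrocyte list 203 to 228 and 201 to 253. For the choroid plexus list the sums were 8.89 to 249 and 6.26 to 7.22, and for red blood cells 3.06 to 7.46 and 11.9 to 84.4. The part of these cells in the Hspb1 change was not tested. Between deficient Ttpa-/- and aged wild-type cerebellum, Hspb1 differed by 0.58 ± 0.19 (adjusted p = 0.0388 in limma), just under the fold threshold, and with an array left out it ran from 0.41 to 0.7, called in 3 of 8 fits.

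Between the diets of the Ttpa-/- mice Hspb1 was higher on the deficient diet in both regions. The deficient arrays read 3.29, 2.58, 2.81 and 2.97 in the cortex and 4.04, 3.17, 3.53 and 3.38 in the cerebellum. Supplemented arrays read 2.67, 1.94, 1.96 and 2.03 and 2.97, 2.83, 2.7 and 2.5. The cerebellar groups did not overlap, whereas the supplemented cortex replicate 1 lay above one deficient array. The change was 0.76 ± 0.19 in the cortex (adjusted p = 0.00785) and 0.78 ± 0.19 in the cerebellum (adjusted p = 0.0405, both in limma). The cerebellar groups shared a slide, whereas the cortical groups did not, so that slide and diet cannot be told apart in the cortex. In the cortex the call was lost without the deficient replicate 1 (0.64, adjusted p = 0.0548) and in a limma fit of the 8 arrays by themselves (adjusted p = 0.0884). In the cerebellum it was called in 2 of 8 fits with an array left out, and lost without the deficient replicate 1 (0.61, adjusted p = 0.215), 3 or 4 and without the supplemented replicate 2, 3 or 4. It was lost as well after median scaling (adjusted p = 0.199), without the filter on dim probes (adjusted p = 0.0587) and in a limma fit of the 8 arrays by themselves (adjusted p = 0.531). In the cortex the myelin gene Mobp was lower by a change of -1.08 ± 0.27 and the neuronal gene Slc17a7 higher by 0.61 ± 0.17 in the same comparison. Each was 1 of 6 markers of its list called, with list medians of -0.47 for oligodendrocytes and -0.11 for cortical excitatory neurons, and the summed oligodendrocyte list was 144 to 179 on the deficient and 210 to 275 on the supplemented diet. Their part was not tested. In the cerebellum, 0 of 52 markers of 10 cell types were called between the diets by limma, where 0.343% of all probes were called. At that share a count of 0 does not show that the cell types were unchanged.

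**Figure D4:**
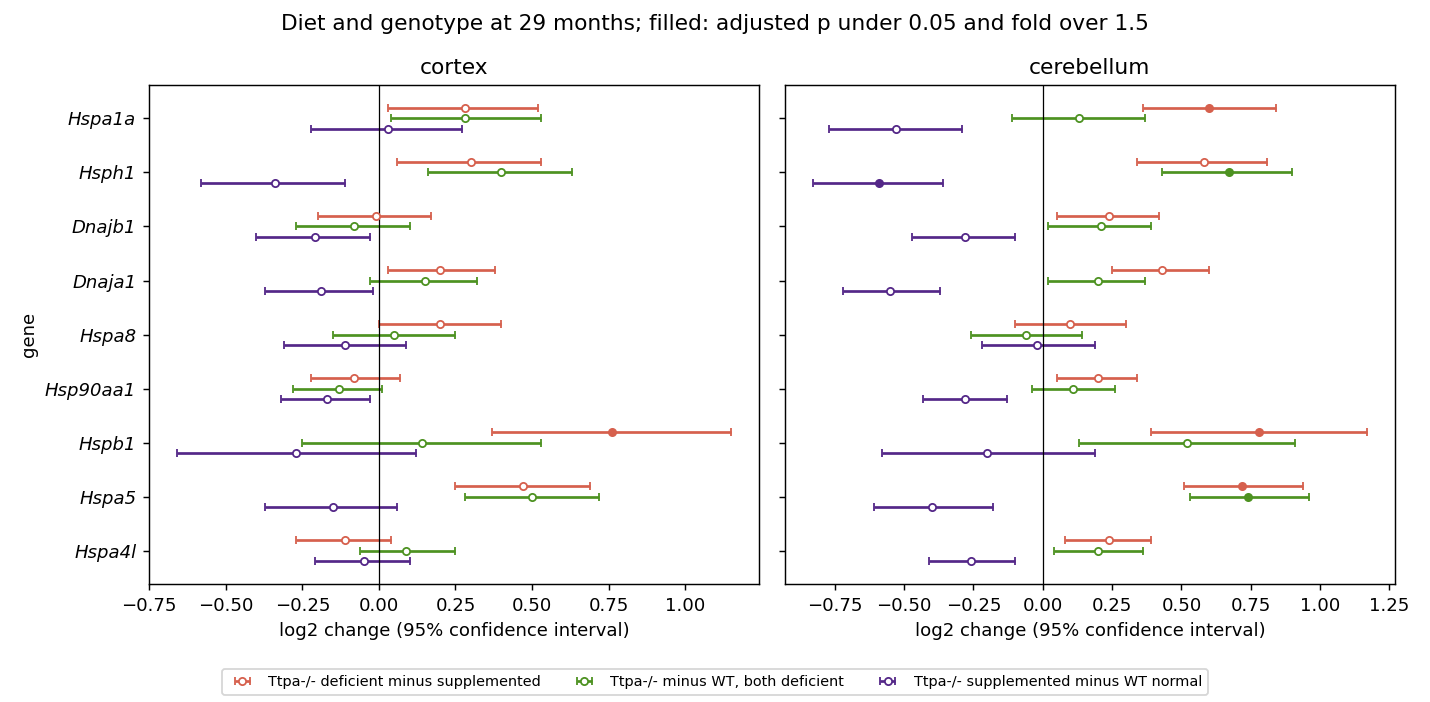
Log2 change with its 95% confidence interval (x axis) of the 9 chaperones (y axis) in cortex and cerebellum for the diet in Ttpa-/- mice, the genotype on the deficient diet, and the supplemented Ttpa-/- against the aged wild-type mice with the normal diet. Filled points passed both thresholds, and in the cerebellum the intervals of the diet comparison lie above 0 for 8 of 9 chaperones, all but Hspa8.

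The J domain proteins Dnajb1 and Dnaja1, which bring unfolded proteins to Hsp70, changed little with age, diet or genotype. Neither was called in any of these comparisons. Dnaja1 nevertheless read 4.22, 3.86, 3.92 and 4.06 in the supplemented Ttpa-/- cerebellum, below 4.54, 4.29, 4.38 and 4.56 in the deficient Ttpa-/- and below all aged wild-type arrays with the normal diet, at 4.68, 4.47, 4.51 and 4.58. Its change was 0.43 ± 0.09 between the Ttpa-/- diets (adjusted p = 0.00938) and -0.55 ± 0.09 for the supplemented Ttpa-/- against the aged wild-type mice (adjusted p = 9.6e-05, both in limma), or 1.34-fold and 1.46-fold. The second Dnaja1 probe gave 0.21 and -0.36 (adjusted p = 0.573 and 0.0547). Dnajb1 was lower in the supplemented Ttpa-/- cerebellum by a change of -0.28 ± 0.09 (adjusted p = 0.0333 in limma).

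Group means of Hspa8, the Hsp70 that all cells use, ran from 7.65 to 7.86 in the cortex and from 7.58 to 7.73 in the cerebellum with its brightest probe, and no comparison had an adjusted p under 0.05. The 3 Hspa8 probes did not read the same differences. Between the Ttpa-/- diets in the cerebellum the change was 0.1 (adjusted p = 0.826) with the brightest, 0.32 (adjusted p = 0.0127) with the middle probe and 0.13 (adjusted p = 0.778) with the probe nearest the 5′ end. For supplemented Ttpa-/- against aged wild-type cerebellum the same probes gave -0.02 (adjusted p = 0.944), -0.22 (adjusted p = 0.0245) and -0.42 (adjusted p = 0.0108, all in limma). Hsp90aa1, the inducible cytosolic Hsp90, was lower in the deficient Ttpa-/- than in the aged wild-type cortex by a change of -0.25 ± 0.07 (adjusted p = 0.0156), and lower in the supplemented Ttpa-/- than in the aged wild-type cerebellum by one of -0.28 ± 0.07 (adjusted p = 0.00873, both in limma). The arrays read 6.2, 6.24, 6.24 and 6.5 in that cortex against 6.58, 6.6, 6.52 and 6.47, so that 1 deficient array lay within the wild-type range. Hspa4l, the second Hsp110 protein of the list, changed in the same direction as Hsph1 in the supplemented Ttpa-/- cerebellum, by -0.26 ± 0.08 (adjusted p = 0.0228 in limma).

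The cortex and the cerebellum differed in the chaperones at both ages. In young wild-type mice 4 of 9 were higher in the cortex and 0 lower, where 38.4% of all probes tested were called, and in aged wild-type mice the same genes were called, 4 of 9 against 33.6%. They were the inducible Hsp70 Hspa1a, the J domain proteins Dnaja1 and Dnajb1, and the exchange factor Hsph1. The shares are near those of all probes. Hsph1 differed by 1.62 ± 0.12 at 2 months and 1.48 ± 0.12 at 29 months (adjusted p = 9.15e-14 and 1.13e-12 in limma), 3.06-fold and 2.78-fold, and its lowest cortical array of any group, 4.06, lay above its highest cerebellar array, 3.59. The dimmer probe gave 1.62 and 1.37. Hspa1a differed by 0.73 ± 0.12 and 1.04 ± 0.12, Dnaja1 by 0.74 ± 0.09 and 0.64 ± 0.09, and Dnajb1 by 0.6 ± 0.09 and 0.68 ± 0.09. The Dnajb1 difference at 2 months, 1.51-fold, was below the fold threshold without the young cortex replicate 4 (0.57) or the young cerebellum replicate 1 (0.52), after quantile normalization (0.45), with normexp correction (0.52) and with array weights (0.54). At 29 months both J domain proteins were below it after quantile normalization (0.49 for Dnaja1 and 0.54 for Dnajb1). Dnaja1 was so with normexp correction at 29 months (0.55) and as the mean of its probes at either age (0.54 and 0.43).

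Hspa4l ran the other way. It was lower in the cortex by a change of -0.53 ± 0.08 at 2 months and -0.39 ± 0.08 at 29 months (adjusted p = 4.17e-07 and 5.92e-05 in limma), below the fold threshold at both ages, and at 2 months over it after quantile normalization (-0.64) or normexp correction (-0.61). Hspb1 was lower by -0.39 ± 0.19 and -0.52 ± 0.19 (adjusted p = 0.0747 and 0.0195), and Hsp90aa1 was higher by 0.33 ± 0.07 and 0.38 ± 0.07 (adjusted p = 0.000227 and 4.06e-05). For Hspa5 the difference was 0 (interval -0.21 to 0.22) at 2 months. Region was set against region across slides.

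**Figure D5:**
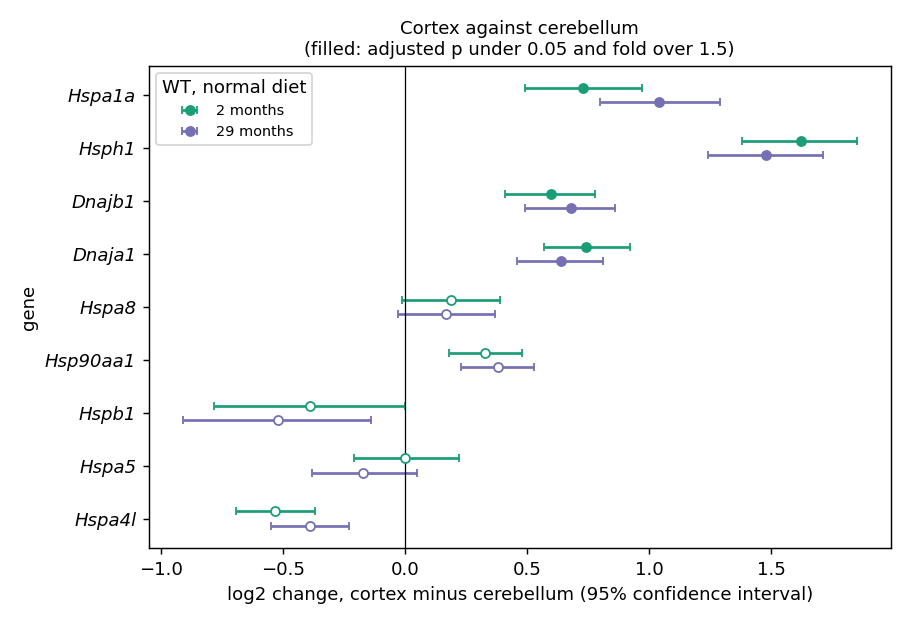
Log2 change between cortex and cerebellum with its 95% confidence interval (x axis) for the 9 chaperones (y axis) of wild-type mice with the normal diet at 2 months (green) and 29 months (violet). Filled points, those of Hspa1a, Hsph1, Dnajb1 and Dnaja1, passed both thresholds at both ages, and Hsph1 lies farthest from 0 at 1.62 and 1.48.

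Genes that work with these chaperones were followed by lists. Over all probes, 0.0316% to 5.03% were called in the comparisons within a region, and at such shares a short list holds few calls or none. Of 15 co-chaperones, the Hsp70 exchange factor Bag3 rose with age in the cortex (0.62 ± 0.12) and the cerebellum (0.76 ± 0.12), and no other was called with age. Chordc1, which binds Hsp90, was higher in the deficient Ttpa-/- cortex than in the supplemented Ttpa-/- (0.66 ± 0.13) and deficient wild-type cortex (0.86 ± 0.13). The transcription factor Hsf1, which switches on heat shock genes, rose by 0.76 ± 0.09 in both of these comparisons (adjusted p = 1.17e-05 and 7.51e-06 in limma), while Hsf2 was called in no comparison within a region. Both of these cortical comparisons crossed slides, and slide and condition cannot be told apart in them. Hspbp1, an Hsp70 exchange factor, was the 1 co-chaperone whose change with oxidative stress differed between regions, by 0.72 ± 0.14 (adjusted p = 0.00252 in limma). Of all probes, 3.38% were called for that difference.

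The counts of the other lists are to be read beside the same shares of all probes. Of the 9 other Hsp70, Hsp90 and Hsp110 proteins, Hspa2 rose with age in the cerebellum (0.74 ± 0.12) and Hspa12a was higher in the deficient Ttpa-/- than in the deficient wild-type cerebellum (0.61 ± 0.11). The small heat shock protein Hspb3 fell with age in the cortex by 0.78 on the log2 scale and was lower on the deficient diet in the Ttpa-/- cortex (-0.66 ± 0.18). None of the 10 chaperonins, the ring-shaped folding machines and their partners, and none of 9 other J domain proteins was called by limma with age, diet or genotype. Immediate early genes, which neurons and glia switch on within minutes of a stimulus, were followed because they move with handling and tissue collection. Fosb rose with age in the cortex (0.98 ± 0.2), and in the cerebellum Egr2 rose (1.97 ± 0.48) and Egr4 was lower (-0.84 ± 0.22). Of 12 such genes, 1 rose between the Ttpa-/- diets in the cerebellum, Npas4 (1.6 ± 0.32), with a median of 0.23, and 1 in the cortex, Fosb (0.91 ± 0.2), with a median of 0.38. Fosb was also higher in the deficient Ttpa-/- than in the deficient wild-type cortex (0.85 ± 0.2, adjusted p = 0.0052 in limma). Npas4 was also lower in the supplemented Ttpa-/- than in the aged wild-type cerebellum (-1.33 ± 0.32), where Hsph1 was lower. The part of these differences in those of the chaperones was not tested.

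From array to array, pairs of chaperones differed in how closely they varied together, and pairs of other genes were not computed for reference. After the group means were subtracted, the 36 pairs of chaperones had a median Pearson r of 0.29 over the 40 arrays, with 31 pairs above 0 and a range from -0.24, for Hspb1 and Hspa4l, to 0.69, for Hsp90aa1 and Hspa5. The pair of Hsp110 proteins, Hsph1 and Hspa4l, had an r of 0.66. Hsp90aa1, over the 40 arrays with the region means subtracted, was followed most closely by Eif2s1 (r = 0.9), Tceb1 (0.89), Ube2d3 (0.88), Uqcrb (0.86) and Tmem93 (0.86), and Hspa1a by Scpep1 (0.79), Flii and Mrpl38 (0.75 each), 2400003C14Rik (0.73) and Cog6 (0.72). These too are descriptions over arrays that share groups and slides.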

How the data were processed

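RNA of cerebral cortex and cerebellum of 4 mice per group was hybridised to 40 Agilent 1-colour arrays. Per the file headers, the authors' scanner files held background-subtracted intensity values from Agilent Feature Extraction 10.7.3.1, while the submitters' notes name version 10.1.1.1, and probe positions are of mm9. The authors also deposited a table of log2 values, which was used as an alternative. Its median absolute difference from the values computed here, less each probe's mean over the 40 arrays, was 0.00085. Each array had 62976 spots, and 95 to 148 spots flagged as outliers were left out per array, after which 55589 of 55681 probes remained. Probes well above background made up 51.4% to 61.4% of the array, and the number of arrays limits the precision.

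The log2 intensity was averaged over the spots of a probe, and the log2 75th percentile of the array was subtracted. limma 3.58.1 in R 4.3.3 was fitted over all 40 arrays with a mean for each of 10 groups, and 17 comparisons were drawn from it. The p-values were adjusted by Benjamini-Hochberg over the probes above background on all 4 arrays of a compared group. Errors of changes are standard errors of this fit. The fit was tested on simulated data. Correlations within groups of replicates ran from 0.973 to 0.993.

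The chaperones and all gene lists were chosen with earlier results of these data known, and genes of the lists were named by a rule: the 3 called genes with the largest change. Groups came from the labels, and the methods state 4 mice per group. Same-numbered arrays deviated together with every r from 0.1 to 0.45 only for the Ttpa-/- diets in the cortex, and a fit with the replicate number as a block changed no call there. Alternatives were the array median or quantiles for scaling, normexp with an offset of 50, the deposited log2 table, all probes without a detection filter, the replicate block, weights for arrays, limma on the 8 arrays of a comparison by themselves, the methods' t-test, a call without fold threshold, a gene's probes averaged, and each array omitted.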

Additional observations from a re-analysis of the deposited data

Results flagged for a closer look

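In 90 sets of 4 arrays, 9 chaperones in 10 groups, 5 arrays stood apart from the other 3 of their group by more than Dixon's 95% critical value of 0.829, which chance passes in about 1 of 20 sets. Hspa1a was 0.84 in the deficient Ttpa-/- cortex replicate 1, against 0.37 to 0.41 in the others. In the deficient Ttpa-/- cerebellum replicate 1 it was -0.45, against -0.92 to -0.86, and the diet comparison without that array is given with the gene. Hsp90aa1 was 6.5 in the deficient Ttpa-/- cortex replicate 4, against 6.2 to 6.24. Hspb1 was 2.67 in the supplemented Ttpa-/- cortex replicate 1, against 1.94 to 2.03. Hspa4l was 3.56 in the supplemented Ttpa-/- cerebellum replicate 2, against 3.67 to 3.68.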

How the results depend on the processing

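The direction of change was the same as reported under every alternative for all 40 changes with an adjusted p under 0.05. Some alternatives could not reverse it, because they keep the same difference of group means. These are the ones on the filter, the fold threshold, the replicate block, the t-test and the compared groups by themselves. Over the alternatives other than leaving out an array, 419 values also kept their side of the thresholds, 30 lost the call and 31 gained one. Gains without the fold threshold follow from the choice of the 40 changes by adjusted p. Counts of called chaperones moved as follows. Median scaling gave 0 for aging in the cerebellum, 2 for the deficient diet in wild-type cerebellum and 0 for the Ttpa-/- diets in the cerebellum. It shifted the median of all probes by -0.188 for the wild-type diet and 0.167 for the genotypes on the deficient diet, both in the cerebellum, and by -0.14 for supplemented Ttpa-/- against deficient wild-type cortex. Quantile normalization and the authors' log2 values each gave 1, Hspb1, for oxidative stress in the cerebellum. Without the filter on dim probes aging in the cerebellum had 0. Array weights gave 0 for aging in the cerebellum, 1 for oxidative stress in the cerebellum and 1 for supplemented Ttpa-/- against deficient wild-type cortex. Without the fold threshold the counts were 1 for aging in the cortex, 2 for oxidative stress in the cortex and 2 in the cerebellum, 3 for the wild-type diet in the cerebellum, 2 for the genotypes in the cortex, 2 for the Ttpa-/- diets in the cortex and 5 in the cerebellum, 7 for supplemented Ttpa-/- cerebellum and 7 for the regions at 29 months. limma on the arrays of a comparison by themselves and the methods' t-test after adjustment both gave 0 for the wild-type diet in the cerebellum, 0 for the Ttpa-/- diets in the cortex and 0 in the cerebellum. For the genotypes in the cerebellum they gave 1 and 0, and the mean of all probes of a gene gave 1. The methods' t-test before adjustment and normexp moved no count by over 1.5 times. The causes were not tested.

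With the replicate block all 17 counts were within 1.5 times the reported ones, at 3 for the Ttpa-/- diets in the cerebellum and 1 in the cortex, where Hspb1 was 0.76. The slide as a block could not be fitted, since each group lay within 1 slide, and the t-test was not run on the 2 differences between regions. When single arrays were omitted, the count ran from 0 to 1 for oxidative stress in the cortex and in the cerebellum, aging in the cerebellum, the wild-type diet in the cerebellum, the Ttpa-/- diets in the cortex and supplemented Ttpa-/- against deficient wild-type cortex. It ran from 0 to 2 for supplemented Ttpa-/- cerebellum, from 1 to 3 for the genotypes in the cerebellum, from 1 to 4 for the Ttpa-/- diets in the cerebellum, from 3 to 4 for the regions at 2 months and from 4 to 5 at 29 months.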

Other observations

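Hsph1, which was added to this comparison after its values were seen, was followed most closely over the 40 arrays, with the region means subtracted, by P4ha1 (Pearson r = 0.92, out of 13851 genes), which encodes a subunit of the collagen prolyl hydroxylase of the endoplasmic reticulum, and then by Dynll1 (0.89), Polb (0.87), Setd7 (0.86) and Cfdp1 (0.85). In the cerebellum P4ha1 was -0.15 ± 0.03 in young wild-type, -0.23 ± 0.14 in aged wild-type, -1.09 ± 0.49 in deficient wild-type, -0.28 ± 0.37 in deficient Ttpa-/- and -1.08 ± 0.25 in supplemented Ttpa-/- mice (mean ± SD of the log2 relative signal, n = 4). The arrays share groups and slides, and r is a description.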
